A study of Mus musculus with 6 samples.

Results

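The proteasome is the protease that degrades ubiquitin-tagged proteins in the cytosol and nucleus. Its barrel, the 20S core, stacks outer rings of alpha subunits on inner rings of beta subunits, and the beta rings carry the proteolytic sites. The 19S cap binds ubiquitin chains, removes them, and unfolds and threads the substrate with a ring of ATPases, and cap and core together form the 26S proteasome. Interferon signalling induces alternative catalytic subunits that replace the constitutive ones during assembly, giving the immunoproteasome, which is known for producing peptides for MHC class I molecules. The transcription factor NRF1 (Nfe2l1) is known to raise proteasome subunit genes together when proteasome capacity falls short.

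The genes described here are the protein-coding genes named Psma, Psmb, Psmc, Psmd, Psme, Psmf or Psmg with a number in the GENCODE M21 annotation of the mouse genome (GRCm38, mm10), matched by versioned Ensembl identifier. They numbered 50 of 55450 genes. By role, they comprised 7 alpha ring genes, 4 non-catalytic beta ring genes, 3 constitutive and 3 immunoproteasome catalytic genes, 2 tissue-specific 20S genes, 6 cap ATPases, 11 other cap subunits, 3 cap assembly chaperones, 4 core assembly chaperones, 4 genes of proteasome activators, the inhibitor gene Psmf1, 1 copy of the activator gene Psme2 and Psmc3ip. Psmc3ip is a DNA recombination factor that shares the name pattern but is not a proteasome subunit. The 31 subunits of the constitutive particle (14 core and 17 cap genes) are called 26S genes below. Another 4 genes with a Psm name were non-coding copies and were not included.

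RNA-Seq counts came from primary hepatocytes isolated by collagenase perfusion from male mice, given as C57BL/6 in the labels and C57BL/6J in the study's methods. The labels give an age of 10 to 12 weeks and the methods a slightly younger one. The 0hr group came from undamaged liver and the 48hr group from liver regenerating for 48 h after partial hepatectomy (PHx, surgical removal of part of the liver), with 3 libraries in each. The labels name no transgene or drug in either group. A sham-operated group was not analysed here, so the effects of surgery and of regeneration cannot be told apart. In these bulk libraries, fewer cells of a type and less RNA per cell cannot be told apart either.

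The libraries held between 31419443 and 36346220 reads counted to genes, and a floor of 3 counts corresponded to 0.0825 to 0.0955 CPM, the count scaled to a fixed library total. Hepatocyte markers dominated all libraries, with a summed level of 109563 to 129735 CPM at 0hr and 73058 to 87357 CPM at 48hr. Of the 12 markers tested, 5 were lower at 48hr and 1 higher, with or without the library described next. Of all genes, 19.3% were lower and 21.4% higher, or 19% and 20.4% without that library. The 0hr replicate 2 library had the largest share of reads outside annotated genes, 32.7% against 24.3 to 29.3% in the other libraries. It also gave the lowest value of its group for 40.1% of all tested genes and for 30 of the 31 26S genes, and for 28 of these the lowest value of all 6 libraries, so counts of calls for the members, their role groups and the lists are also given without it. Within the 48hr group, replicate 3 was lowest for 25 of the 31 26S genes, beside 34.9% of all tested genes.

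Proteasome genes had mostly higher estimates after PHx, by small amounts. Of the 50 members, 49 had enough counts to be tested (at least 10 counts in at least 3 libraries), and 15 rose at 48hr (edgeR quasi-likelihood test, adjusted p under 0.05), while 0 fell and 34 did not pass the test. At an unadjusted p under 0.05, 20 members were higher and 1 lower, and DESeq2 called 13 higher and 0 lower. The 15 were 30.6% of the members tested, beside 21.4% of all 17037 genes tested and 25.3% of the protein-coding genes. None of the members was called lower, beside 19.3% of all genes, and with either direction counted 40.7% of all genes were called. The estimate was positive for 43 members and negative for 6, with a median log2 fold change of 0.22, against -0.00 over all genes and 0.06 over protein-coding genes. In 20 members every 48hr library lay above every 0hr library, beside 27.8% of all genes, and in 2 members, Psmd3 and Psmg3, every 48hr library lay below, beside 25.0% of all genes. With 0hr replicate 2 left out, 20 members lay above and 4 below, beside 32.4% and 30.3% of all genes.

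The counts depended on the 0hr replicate 2 library. Without it, 9 members (18.4%) were called higher, beside 20.4% of all genes, so the share of members that rose was then no larger than the background. These were Psmb6, Psmc3, Psmc4, Psmc6, Psmd1, Psmd13, Psmd14, Psme3 and Psmc3ip. Psmd3, a scaffold subunit of the cap, was then called lower with a log2 fold change of -0.29 (edgeR adjusted p = 0.0340), and 19% of all genes were called lower. The 5 members called under all 16 alternatives tried were Psmc3ip, Psmc3, Psmb6, Psmd13 and Psmd14.

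**Figure D1:**
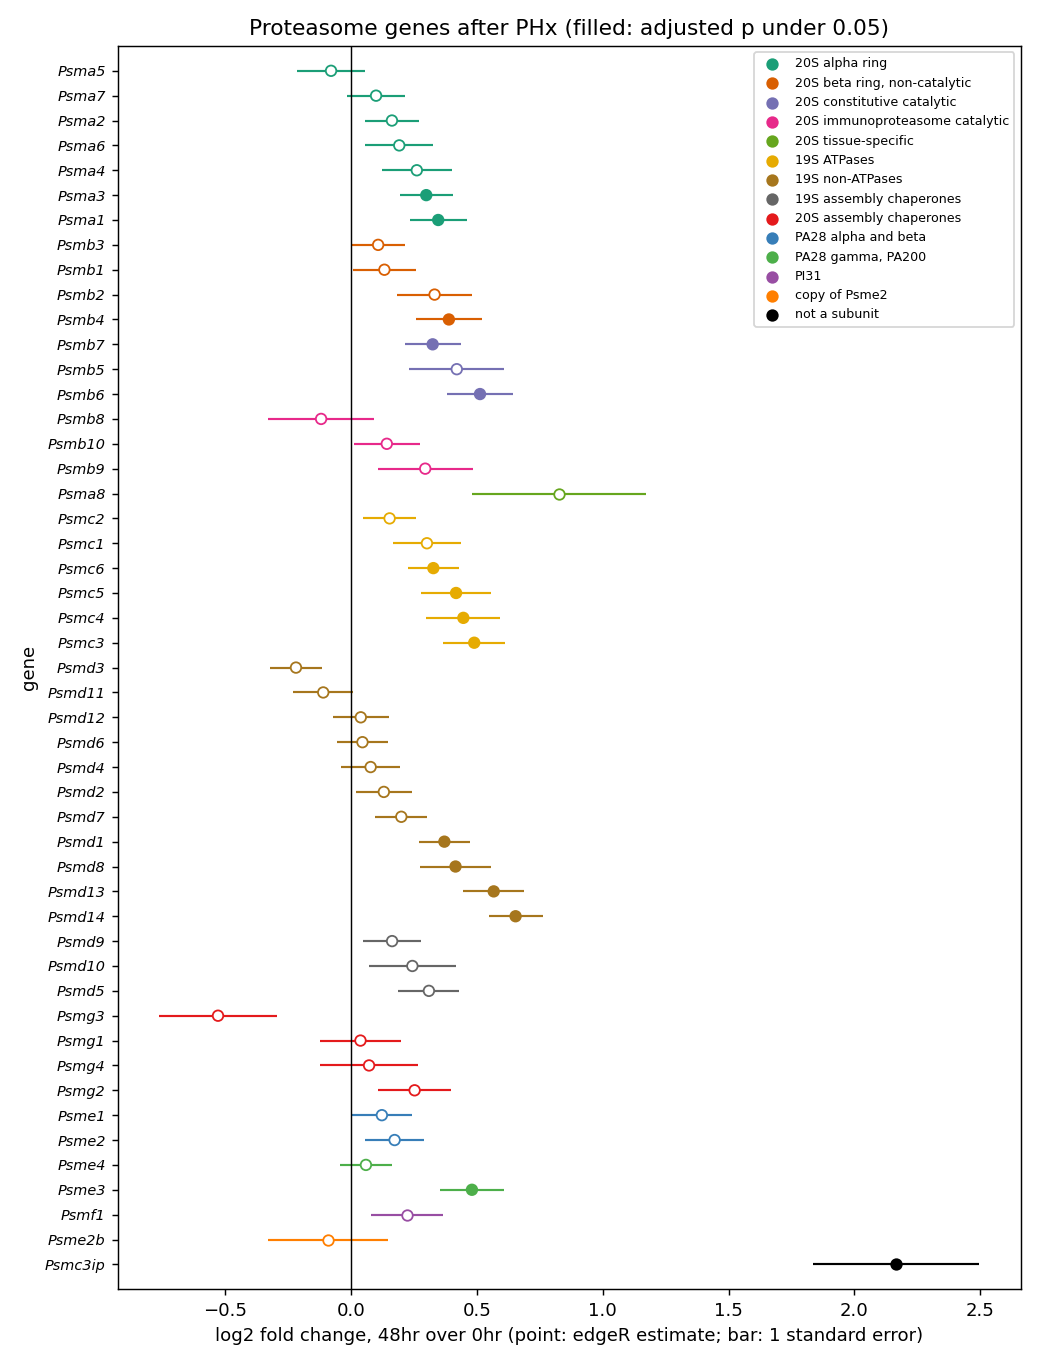
Log2 fold change of the 49 tested members (x axis, 48hr over 0hr), 1 gene a line and coloured by role. Points are edgeR estimates, bars 1 standard error on each side, and filled points passed the adjusted threshold of 0.05. The 15 filled points all lie to the right of 0, and Psmc3ip, which is not a subunit, stands at 2.17, beyond Psmd14 at 0.65.

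Of the 31 26S genes, 13 rose (41.9%, beside 21.4% of all genes and 25.3% of protein-coding genes) and 0 fell, 28 had a positive estimate, and the median log2 fold change was 0.30 (1.23-fold), with a range from -0.22 to 0.65. In 17 of them every 48hr library lay above every 0hr library (27.8% of all genes did), in 1 every 48hr library lay below (25.0% of all genes), and in 13 the groups overlapped. With 0hr replicate 2 left out, 17 lay above and 3 below, beside 32.4% and 30.3% of all genes. Core and cap genes had like medians, 0.28 for the 14 core genes with 5 called and 0.30 for the 17 cap genes with 8 called. The 18 tested members outside the 26S particle had a median of 0.17 and 2 calls, Psme3 and Psmc3ip. Without 0hr replicate 2, the 26S genes had 7 higher and 1 lower call and a median of 0.16, with the median of all genes at 0.01. Their share called higher was then 22.6%, near the 20.4% of all genes.

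Summed over the 31 genes, the 26S mRNA level was 1417, 1176 and 1444 CPM in the 0hr replicates 1 to 3 and 1576, 1621 and 1489 CPM in the 48hr replicates 1 to 3. All 48hr sums lay above all 0hr sums, and the 0hr replicate 2 sum was the lowest by a wide margin. The ratio of the group means was 1.16, and 1.09 without that library. As a plain share of gene counts, with no normalization between libraries, the same genes took 0.132, 0.112 and 0.132% at 0hr and 0.160, 0.177 and 0.164% at 48hr, a ratio of 1.34, and of 1.27 without 0hr replicate 2. The choice of scaling thus set the size of the difference. Scaling by library size alone moved the median of all genes to 0.20 and that of the 26S genes to 0.50. A scaling shifts all genes alike, so the distance of the 26S median from the median of all genes stayed at 0.30 by construction. Leaving out a library can move this distance, which was 0.15 without 0hr replicate 2 and 0.38 without 48hr replicate 3.

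**Figure D2:**
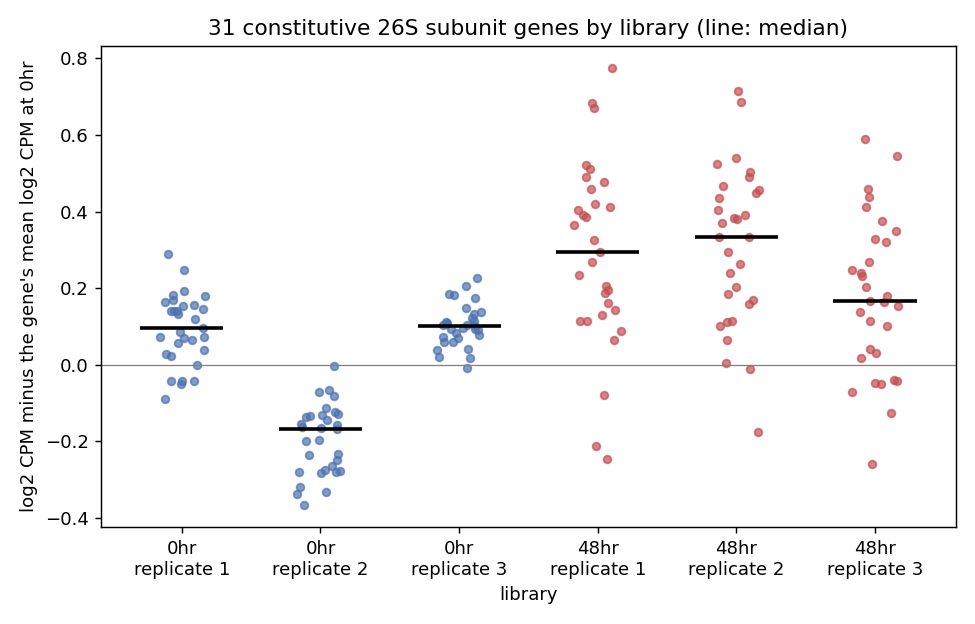
Each point is 1 of the 31 constitutive 26S genes in 1 library, as its log2 CPM minus the gene's mean log2 CPM over the 0hr libraries (y axis), by library (x axis), and the black line is the median. The medians were 0.10, -0.17 and 0.10 in the 0hr libraries and 0.29, 0.33 and 0.17 in the 48hr libraries, with 0hr replicate 2 apart from the other 0hr libraries.

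Levels of different genes can be compared only per length, here as CPM per kilobase of annotated exon. This length can exceed the longest transcript, as for Psmb6 (1872 against 966 bases), or equal it, as for Psmb5 (899 bases). Orders and spans between genes can therefore change with the length used. Although the subunits are assembled in equal numbers, the core genes spanned from 5.43 (Psma2) to 30.7 (Psmb2) at 0hr, with a median of 12.4 and a ratio of highest to lowest of 5.64. At 48hr they spanned from 6.08 (Psma2) to 39.6 (Psmb6), with a median of 14.6 and a ratio of 6.51. The ATPases ran from 6.90 (Psmc2) to 23.4 (Psmc4) CPM per kilobase at 0hr and from 7.67 to 31.9 at 48hr. The other cap subunits ran from 6.35 (Psmd13) to 26.4 (Psmd11) at 0hr and from 9.24 (Psmd6) to 31.3 (Psmd8) at 48hr.

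The alpha ring forms the gate of the core. Of its 7 genes, 2 rose, Psma1 and Psma3 (28.6%, beside 21.4% of all genes), and the median log2 fold change was 0.19. Without 0hr replicate 2, 0 of the 7 passed the test and the median was 0.099, and the calls held under 7 (Psma1) and 5 (Psma3) of the 16 alternatives. Psma1 stood at 33.7, 31 and 40.0 CPM in the 0hr libraries and 44.6, 45.2 and 43.3 CPM in the 48hr libraries. Its groups did not overlap, and the log2 fold change was 0.35 (SE 0.113, edgeR adjusted p = 0.0318). Psma3 had a log2 fold change of 0.30 (edgeR adjusted p = 0.0424). Psma5, with the lowest estimate of the ring, stood at 19.1, 14.0 and 18.3 CPM and then 16.0, 17 and 15.5 CPM. Its groups overlapped and the log2 fold change was -0.08 (SE 0.136, edgeR adjusted p = 0.677), or 0.13 when scaled by library size alone.

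The non-catalytic beta genes place the catalytic subunits in the inner rings, and of these 4 genes, 1 rose, a share like that of all protein-coding genes (25.3%). It was 0 of 4 without 0hr replicate 2. The gene that rose was Psmb4, at 35.5, 26.8 and 33.9 CPM at 0hr and 44.3, 45.1 and 36.6 CPM at 48hr (log2 fold change 0.39, SE 0.132, edgeR adjusted p = 0.0379), and its call held under 9 of the 16 alternatives. Its groups did not overlap, although the highest 0hr and the lowest 48hr library differed by little. Psmb3 had the smallest estimate, a log2 fold change of 0.11 (edgeR adjusted p = 0.446).

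The catalytic genes come in pairs that fill the same position: Psmb6 or Psmb9 for beta1 (caspase-like activity), Psmb7 or Psmb10 for beta2 (trypsin-like) and Psmb5 or Psmb8 for beta5 (chymotrypsin-like), the constitutive gene first. Of the 3 constitutive genes, 2 rose at 48hr, and of the 3 immunoproteasome genes, 0 passed the test, with a smallest edgeR adjusted p of 0.239, 0 at an unadjusted p under 0.05 and 0 calls by DESeq2. Of all genes, 21.4% were called higher, and of protein-coding genes 25.3%, so 0 of 3 lies near the background. The median log2 fold changes were 0.42 and 0.14. Without 0hr replicate 2, 1 constitutive and 0 immunoproteasome genes were called, with medians of 0.29 and 0.079. The summed level of the constitutive 3 was 102.0, 80.0 and 97.6 CPM at 0hr and 128.5, 138.1 and 113.2 CPM at 48hr, a ratio of 1.36, or 1.27 without 0hr replicate 2. That of the immunoproteasome 3 was 15.6, 15.9 and 18.96 CPM and then 17.95, 19.7 and 17.5 CPM, a ratio of 1.09. The constitutive sums did not overlap between the groups, whereas the immunoproteasome sums did.

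Promoter stretches of catalytic genes are shown because the pairs are known to answer to different transcription factors, constitutive genes to NRF1 at antioxidant response elements and immunoproteasome genes to interferon-activated factors. Windows from 250 bases before to 50 after the start (RefSeq, GRCm38.p6) were at hand for 42 of the 50 members and 27025 genes in all. They were searched on both strands for the antioxidant response core TGACNNNGC, the interferon-stimulated element (GAAA, any 2 bases, GAAA), the gamma-activated site TTCNNNGAA and the CCAAT box, spelled CCAAT. Capitals mark a match. The Psmb5 and Psmb6 stretches hold the antioxidant response core, at chr14:54618023-54618112 on the minus strand and chr11:70525267-70525356 on the plus strand. The Psmb10 stretch, chr8:105938445-105938534 on the minus strand, holds none of these motifs. Psmb8 and Psmb9 had no 90-base stretch of the window free of annotated exons. For Psmb8 only a short site with a gamma-activated match is therefore shown, chr17:34198088-34198116 on the plus strand, which lies before the RefSeq start but inside the annotated span of the gene. No window was at hand for Psmb7.
Psmb5: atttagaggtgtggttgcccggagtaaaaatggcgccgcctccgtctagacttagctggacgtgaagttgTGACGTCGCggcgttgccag
Psmb6: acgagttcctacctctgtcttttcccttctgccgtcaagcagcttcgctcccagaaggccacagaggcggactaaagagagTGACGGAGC
Psmb10: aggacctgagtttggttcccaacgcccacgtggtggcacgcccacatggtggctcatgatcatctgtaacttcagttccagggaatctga
Psmb8: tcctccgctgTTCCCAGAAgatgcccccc

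Across members the motifs were about as frequent as elsewhere, apart from the interferon-stimulated element. The antioxidant response core was in 6 of the 42 windows (14.3%), against 12.4% of all windows. These were Psmb5, Psmb6, Psmc6, Psmd9, Psmd12 and Psme4, of which Psmb6 and Psmc6 rose. The gamma-activated site was in 3 (7.14% against 8.35%) and the CCAAT box in 15 (35.7% against 37.9%). The interferon-stimulated element was in 5 (11.9% against 3.49%), Psmb3, Psmd4, Psmd9, Psme1 and Psmg4, none of which passed the test between 0hr and 48hr. A match is a run of letters and not a measured binding site.

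Psmb6 (chr11:70525367-70527858, plus strand) had the largest estimate of the catalytic genes. It stood at 56.9, 43.8 and 55.2 CPM at 0hr and 73.6, 83.1 and 65.8 CPM at 48hr. All 48hr libraries lay above all 0hr libraries, and the mean went from 52.0 ± 7.11 to 74.2 ± 8.70 CPM (SD, n = 3 each). The log2 fold change was 0.51 (SE 0.131, edgeR adjusted p = 0.0105), a fold of 1.43. Its immunoproteasome counterpart Psmb9 (chr17:34181987-34187764, minus strand) stood at 3.34, 4.58 and 4.88 CPM and then 5.02, 5.85 and 4.86 CPM. The groups overlapped at their edge, and the log2 fold change was 0.30 (SE 0.188, edgeR adjusted p = 0.239).

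Psmb7 (chr2:38588036-38644087, minus strand) stood at 34.3, 28.3 and 32.4 CPM at 0hr and 38.7, 43.0 and 37.2 CPM at 48hr. Its groups did not overlap, with means of 31.6 ± 3.06 and 39.6 ± 3.02 CPM (SD, n = 3 each), and the log2 fold change was 0.32 (SE 0.111, edgeR adjusted p = 0.0387). The call held under 6 of the 16 alternatives. Psmb10 (chr8:105935735-105938444, minus strand) stood at 8.72, 7.87 and 8.98 CPM and then 9.81, 9.63 and 8.80 CPM. The groups overlapped, and the log2 fold change was 0.14 (SE 0.131, edgeR adjusted p = 0.416).

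Psmb5 (chr14:54614119-54618022, minus strand), the target of clinical proteasome inhibitors, stood at 10.8, 7.84 and 10.0 CPM at 0hr and 16.2, 12.0 and 10.3 CPM at 48hr. The 48hr libraries spread widely, replicate 3 falling among the 0hr values, and the log2 fold change was 0.42 (SE 0.189, edgeR adjusted p = 0.102). Psmb5 had an estimate of 0.21 without 48hr replicate 1 and 0.56 without 48hr replicate 3 (edgeR adjusted p = 0.381 and 0.0398). Of the 50-base words in its exons, 57.1% also occur in other genes, so its reads may be split or lost. Psmb8 (chr17:34197721-34201454, plus strand) stood at 3.54, 3.48 and 5.09 CPM and then 3.12, 4.2 and 3.86 CPM, from 104 to 169 counts. The groups overlapped, and the log2 fold change was -0.12 (SE 0.211, edgeR adjusted p = 0.687), a sign that scaling by library size alone or leaving out 0hr replicate 3 turned.

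**Figure D3:**
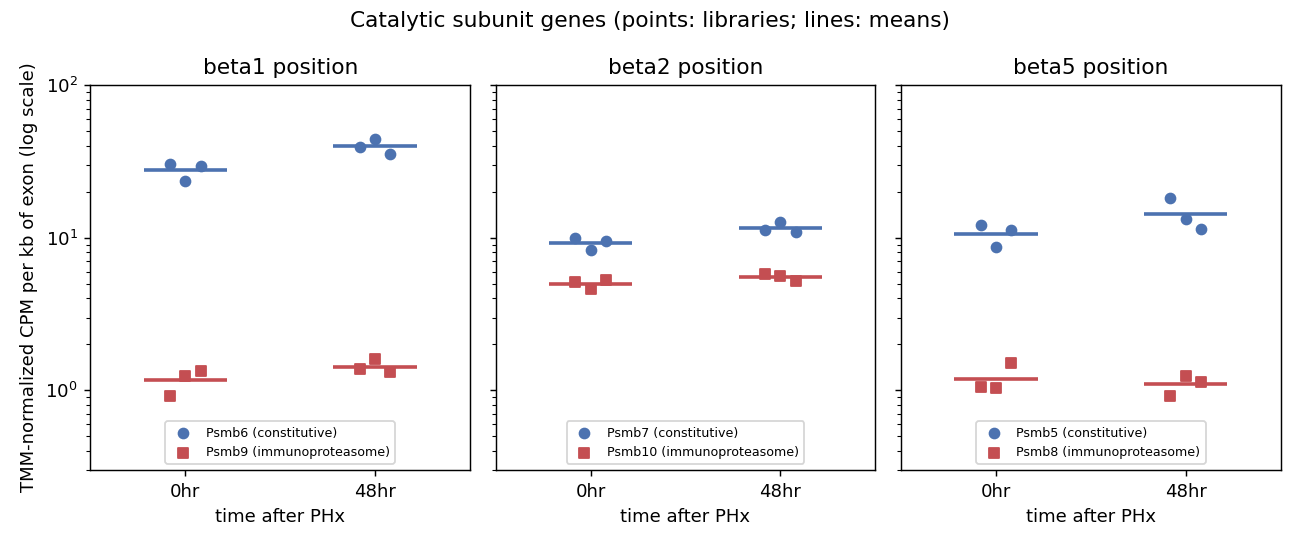
Level of the constitutive (circles) and immunoproteasome (squares) gene of each catalytic position in CPM per kilobase of exon (y axis, log scale) at 0hr and 48hr (x axis), with 1 point per library and lines at the group means. Psmb6 and Psmb7 have all 48hr points above their 0hr points, the other genes do not, and Psmb10 lies nearest to its constitutive counterpart.

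Per kilobase of exon, the order of the 6 catalytic genes at 0hr was Psmb6 at 27.8 ± 3.80, Psmb5 at 10.6 ± 1.73, Psmb7 at 9.25 ± 0.894, Psmb10 at 5.0 ± 0.341, Psmb8 at 1.2 ± 0.270 and Psmb9 at 1.17 ± 0.224 CPM (SD, n = 3). Psmb5 and Psmb7, and likewise Psmb8 and Psmb9, lay closer to each other than their spread. At 48hr they stood at 39.6 ± 4.65 (Psmb6), 14.3 ± 3.42 (Psmb5), 11.6 ± 0.884 (Psmb7), 5.52 ± 0.314 (Psmb10), 1.43 ± 0.145 (Psmb9) and 1.10 ± 0.163 CPM per kilobase (Psmb8). Immunoproteasome transcripts were thus present at both times, from all 3 genes, and Psmb10 was well above the other 2. The order of Psmb5 and Psmb7 can change with the length used. Exon length and longest transcript are both 899 bases for Psmb5, but 3421 and 2849 bases for Psmb7.

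The ratio of immunoproteasome to constitutive gene, per kilobase, compares the partners within each library and does not depend on scaling between libraries. Psmb9 to Psmb6 was 0.0300, 0.0534 and 0.0453 at 0hr and 0.0349, 0.0360 and 0.0378 at 48hr (exact two-sided permutation p = 0.5, adjusted over the 3 pairs 0.5). The groups overlapped, and the log2 difference was -0.20 (SE 0.250). Psmb10 to Psmb7 was 0.511, 0.558 and 0.557 and then 0.509, 0.449 and 0.475, with all 48hr ratios below all 0hr ratios. Its log2 difference was -0.18 (SE 0.0672, exact permutation p = 0.1, the smallest that 3 against 3 allows, adjusted 0.3). Psmb8 to Psmb5 was 0.0870, 0.118 and 0.135 and then 0.0511, 0.0934 and 0.10 (exact permutation p = 0.3, adjusted 0.45). These groups overlapped, and the log2 difference was -0.51 (SE 0.360). All 3 estimates were negative, but single libraries set the size of the first and the last. Without 0hr replicate 2 the Psmb9 to Psmb6 difference was -0.025, and without 0hr replicate 1 it was -0.44. Without 48hr replicate 1 the Psmb8 to Psmb5 difference was -0.21.

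Leukocytes express immunoproteasome genes strongly, and the hepatocyte preparations held some transcripts of other liver cells. Leukocyte markers summed to 131.3 to 154.5 CPM at 0hr and 108.4 to 124.4 CPM at 48hr, most of it Lcp1, and without it to 11.1 to 16.9 and 13.3 to 17.9 CPM. Of the 12 markers, 7 were tested and 0 called, and 3 had at most 3 counts in every library. Kupffer cell markers summed to 83.1 to 124.3 CPM and 119.4 to 146.8 CPM, with 3 of 12 higher and 0 lower, beside 21.4% and 19.3% of all genes. Endothelial markers summed to 295.8 to 455.8 CPM and 208.7 to 232.1 CPM, with 12 of 13 lower, beside 19.3% of all genes. Stellate cell markers summed to 61.9 to 100.1 and 52.9 to 63.7 CPM, with 1 of 6 higher and 1 lower. Neutrophil markers summed to at most 0.409 CPM at 0hr and 1.06 CPM at 48hr, and cholangiocyte markers to at most 0.290 and 0.0572 CPM, with no gene of either list tested. Without 0hr replicate 2, the lower calls numbered 9 of 13 for endothelial and 1 of 7 for leukocyte markers, and the counts for Kupffer and stellate markers were as above. The part of these cells in the Psmb8, Psmb9 and Psmb10 levels was not tested.

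The immunoproteasome shares the antigen presentation pathway with the class I heavy chains, their light chain and the peptide transporter. Of 12 MHC class I pathway genes, 6 fell and 0 rose, with a median log2 fold change of -0.37, whereas scaling by library size alone left 3 lower and 1 higher. Of all genes, 19.3% were lower, or 12.4% with that scaling. The class I heavy chain gene H2-K1 fell by 1.11 on the log2 scale (SE 0.129, edgeR adjusted p = 8.78e-05), and B2m, its light chain, fell by 0.83 (SE 0.177, edgeR adjusted p = 0.00393). Tap1 and Tap2, the peptide transporter genes beside Psmb9 and Psmb8 on chromosome 17, fell by 0.50 and fell by 0.62 (edgeR adjusted p = 0.00980 and 0.0135, named after their values were seen). Of 20 interferon pathway genes, 19 were tested, of which 6 fell and 0 rose, with a median of -0.29, and 4 were lower and 3 higher when scaled by library size alone. At an unadjusted p under 0.05, edgeR gave 0 higher genes for MHC class I and 1 for interferon, and DESeq2 called 0 higher in each. The counts without 0hr replicate 2 were 7 and 6 lower and 0 and 1 higher. The classical interferon-induced gene Ifit1 fell by 1.78 on the log2 scale and its relative Ifit3 fell by 1.67 (edgeR adjusted p = 0.000109 and 0.000425). Ifng itself had 1 count in 1 library. Whether the immunoproteasome genes differed from these lists was not tested.

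The cap ATPases are the motor that unfolds substrates. Of the 6, 4 rose (Psmc3, Psmc4, Psmc5 and Psmc6), beside 21.4% of all genes, 5 had all 48hr libraries above all 0hr libraries, beside 27.8%, and the median log2 fold change was 0.37. With 0hr replicate 2 left out, 3 rose (Psmc3, Psmc4 and Psmc6), beside 20.4% of all genes, with a median of 0.28. Psmc3 (chr2:91054009-91066369, plus strand) stood at 44.6, 33.2 and 42.7 CPM at 0hr and 57.2, 57.3 and 54.8 CPM at 48hr. The 48hr libraries were close together and above all 0hr libraries, and the log2 fold change was 0.49 (SE 0.122, edgeR adjusted p = 0.00903), a fold of 1.40. Psmc4 stood at 54.9, 38.6 and 58.2 CPM and then 69.9, 72.4 and 64.6 CPM (log2 fold change 0.45, SE 0.147, edgeR adjusted p = 0.0333). Its estimate was 0.28 without 0hr replicate 2, and its call held under 12 of the 16 alternatives. Psmc5 and Psmc6 had log2 fold changes of 0.42 and 0.33 (edgeR adjusted p = 0.0330 and 0.0242), and each call held under 9 of the 16 alternatives. Psmc2 had the smallest estimate, with 36.7, 30.9 and 36.5 CPM and then 36.8, 39.8 and 39.2 CPM (log2 fold change 0.15, SE 0.106, edgeR adjusted p = 0.274). Its lowest 48hr library lay barely above its highest 0hr library.

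The non-ATPase subunits of the cap receive and deubiquitinate substrates. Of the 11, 4 rose (Psmd1, Psmd8, Psmd13 and Psmd14), or 36.4% beside 21.4% of all genes, with a median of 0.13 over all 11. Without 0hr replicate 2, 3 were called higher (Psmd1, Psmd13 and Psmd14) and Psmd3 lower, beside 20.4% and 19% of all genes, and the median was 0.043. Psmd14 (chr2:61711694-61800376, plus strand), the metalloprotease that cuts ubiquitin chains from substrates, had the largest change of the 26S genes. It stood at 24.8, 21.7 and 26.2 CPM at 0hr and 38.5, 39.7 and 36.4 CPM at 48hr. The groups were far apart, and the mean went from 24.3 ± 2.28 to 38.2 ± 1.66 CPM (SD, n = 3 each), a log2 fold change of 0.65 (SE 0.107, edgeR adjusted p = 0.000800) and a fold of 1.57.

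Psmd13 (chr7:140881968-140898643, plus strand), a structural subunit of the lid of the cap, stood at 24.2, 18.6 and 21.6 CPM and then 34.3, 29.98 and 31.1 CPM. All 48hr libraries were above all 0hr libraries, with a log2 fold change of 0.57 (SE 0.121, edgeR adjusted p = 0.00391). Psmd1, the largest scaffold of the base, stood at 65.9, 64.2 and 73.9 CPM and then 90.3, 88.3 and 85.2 CPM (log2 fold change 0.37, SE 0.102, edgeR adjusted p = 0.0148). Psmd8, a lid subunit, had a log2 fold change of 0.42 (edgeR adjusted p = 0.0359), or 0.26 without 0hr replicate 2 (edgeR adjusted p = 0.0506). Its call held under 10 of the 16 alternatives.

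Psmd3 (chr11:98682554-98695979, plus strand) had the lowest estimate of the cap genes. It stood at 104.9, 91.5 and 104.1 CPM at 0hr and 86.2, 88.5 and 83.6 CPM at 48hr, with every 48hr library below every 0hr library. The log2 fold change was -0.22 (SE 0.104, edgeR adjusted p = 0.121), and -0.015 when scaled by library size alone (edgeR adjusted p = 0.927). Psmd3 passed the threshold without 0hr replicate 2, with upper-quartile scaling (23.0% of all genes lower) and with TMM scaling on protein-coding genes (21.8% lower and 19.6% higher). Psmd11, a lid subunit, was the other negative estimate of the group, with a log2 fold change of -0.11 (edgeR adjusted p = 0.499), or 0.097 when scaled by library size alone.

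None of the assembly chaperones with a Psm name passed the test, 0 of 3 for the cap and 0 of 4 for the core, and DESeq2 also called 0, as did edgeR without 0hr replicate 2. Of all genes, 21.4% were called higher and 19.3% lower, so 0 of so few genes lies near the background. At an unadjusted p under 0.05, edgeR gave 1 higher cap chaperone, Psmd5, and 1 lower core chaperone, Psmg3. For the cap, Psmd5 stood at 21.7, 18 and 23.4 CPM and then 27.5, 25.0 and 25.7 CPM, without overlap (log2 fold change 0.31, SE 0.121, edgeR adjusted p = 0.0640), and Psmd9 had the smallest estimate of 0.16 (edgeR adjusted p = 0.279). For the core, Psmg2 had a log2 fold change of 0.25 (edgeR adjusted p = 0.195). Psmg3 stood at 2.35, 1.61 and 1.81 CPM and then 1.34, 1.37 and 1.29 CPM, from 45 to 69 counts. Every 48hr library lay below every 0hr library, with a log2 fold change of -0.53 (SE 0.233, edgeR adjusted p = 0.0963).

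Activators open the core without the 19S cap. PA28 alpha and beta (Psme1 and Psme2) are interferon-induced and act with the immunoproteasome, and neither passed the edgeR or DESeq2 test, or an unadjusted p of 0.05. Psme1 (chr14:55578123-55581529, plus strand) stood at 40.3, 31.1 and 40.8 CPM and then 39.3, 41.5 and 41.4 CPM (log2 fold change 0.12, SE 0.12, edgeR adjusted p = 0.447). Psme2 (chr14:55587441-55591113, minus strand) stood at 24.6, 21.5 and 27.8 CPM and then 26.9, 29.6 and 26.9 CPM (log2 fold change 0.17, SE 0.118, edgeR adjusted p = 0.269). The groups of both genes overlapped, and 0hr replicate 2 was the lowest library for each. Without it, the Psme1 estimate was -0.00.

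The nuclear activator PA28 gamma, encoded by Psme3 (chr11:101316213-101323537, plus strand), rose. It stood at 97.9, 78.8 and 104.6 CPM at 0hr and 121.3, 137.9 and 133.3 CPM at 48hr, without overlap. The mean went from 93.7 ± 13.4 to 130.8 ± 8.56 CPM (SD, n = 3 each), a log2 fold change of 0.48 (SE 0.128, edgeR adjusted p = 0.0129) and a fold of 1.40. Psme4, which encodes PA200, another nuclear activator, stood at 132.7, 135.2 and 141.3 CPM and then 143.5, 134.7 and 148.4 CPM, with overlapping groups (log2 fold change 0.06, SE 0.105, edgeR adjusted p = 0.679, or -0.02 with upper-quartile scaling). Psmf1, the inhibitor PI31, stood at 33.0, 23.9 and 31.2 CPM and then 32.6, 39.2 and 31 CPM, also overlapping (log2 fold change 0.22, SE 0.143, edgeR adjusted p = 0.242).

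The tissue-specific core genes had few or no counts. Psma8, the alpha subunit of the testis, had 12, 14 and 19 counts at 0hr and 32, 38 and 19 counts at 48hr, with 1 library of each group at the same count (log2 fold change 0.83, SE 0.345, edgeR adjusted p = 0.0807). Psmb11, the catalytic subunit of the thymus, had 0, 1 and 0 counts and then 0, 0 and 2 counts, under the floor of 3 counts in every library, and was not tested. Psme2b, a copy of Psme2 that shares 69.3% of its 50-base words with other genes, stood at 1.5, 1.55 and 2.11 CPM and then 1.58, 1.85 and 1.43 CPM (log2 fold change -0.09, SE 0.238, edgeR adjusted p = 0.788). That sign turned when scaled by library size alone or without 0hr replicate 3.

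Psmc3ip (chr11:101091823-101095436, minus strand) had the largest change of all members, at low counts. It had 6, 10 and 11 counts at 0hr and 52, 49 and 35 counts at 48hr, or 0.204, 0.323 and 0.332 CPM and then 1.55, 1.37 and 1.0 CPM. The groups were far apart, with a log2 fold change of 2.17 (SE 0.330, edgeR adjusted p = 0.000506) and a fold of 4.49. Its product is known to pair homologous chromosomes with the recombinases of DNA repair. Of its exon bases, 21.2% overlap Mlx on the opposite strand, and reads of both genes may be mixed, since no source used here says whether counting respected strand.

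Proteins that work with the proteasome had a median log2 fold change of 0.28 over 16 genes, of which 5 rose and 0 fell, beside 21.4% of all genes called higher. The partner counts without 0hr replicate 2 were 3 and 0, beside 20.4%. Uchl5, a deubiquitinase bound to the cap, stood at 4.05, 3.55 and 4.43 CPM at 0hr and 8.77, 8.48 and 9.83 CPM at 48hr, without overlap (log2 fold change 1.17, SE 0.154, edgeR adjusted p = 0.000199). Zfand2a, a stress-induced proteasome adaptor, had a log2 fold change of 0.53 (edgeR adjusted p = 0.00377). Others that rose, named after their values were seen, included Txnl1 (0.44) and Pomp (0.36), the last being the maturation factor of the core. Adrm1, the cap receptor that holds Uchl5, had a log2 fold change of 0.07 (edgeR adjusted p = 0.693).

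The list built around NRF1 was split, with 2 of 14 genes higher and 4 lower, beside 21.4% and 19.3% of all genes, and a median of 0.03. Scaled by library size alone, it had 4 higher and 3 lower, beside 31.2% and 12.4%. It had 1 higher and 4 lower without 0hr replicate 2. Nfe2l2, the related factor NRF2, rose with a log2 fold change of 0.71 (edgeR adjusted p = 0.000595), and its inhibitor Keap1 with one of 0.30 (edgeR adjusted p = 0.0456). Sel1l and Syvn1, which form a ubiquitin ligase that tags NRF1 at the endoplasmic reticulum, fell by 0.84 and fell by 0.83 (edgeR adjusted p = 0.000657 and 0.00138). Nfe2l1, which encodes NRF1, stood at 144.2, 156.3 and 156.3 CPM at 0hr and 115.6, 111.8 and 118.7 CPM at 48hr. All 48hr libraries were below all 0hr libraries, and it fell by 0.40 on the log2 scale (SE 0.104, edgeR adjusted p = 0.0112). The fall is smaller when scaled by library size alone, which moved the median of all genes to 0.20. NRF1 is controlled mainly after translation, which these counts do not measure.

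Among the 6 ubiquitin genes, 3 rose and 1 fell, beside 21.4% and 19.3% of all genes. The counts were the same without 0hr replicate 2, beside 20.4% and 19% of all genes. Rps27a, a ribosomal fusion that supplies ubiquitin, had a log2 fold change of 0.68 (edgeR adjusted p = 0.00597) and Uba6, an activating enzyme, one of 0.58 (edgeR adjusted p = 0.00746). Ubb, a polyubiquitin gene named after its values were seen, had a log2 fold change of 0.50 (edgeR adjusted p = 0.0245).

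**Figure D4:**
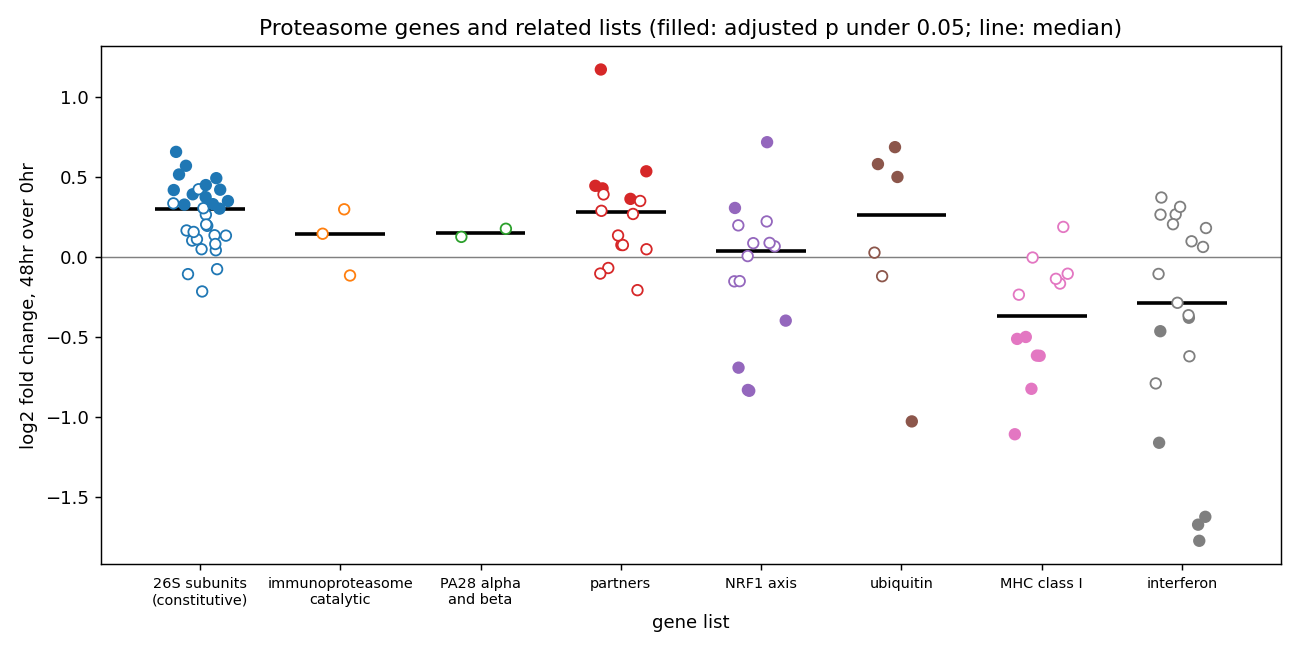
Log2 fold change (y axis, 48hr over 0hr) of each tested gene in the constitutive 26S genes, the immunoproteasome catalytic genes, PA28 alpha and beta, and 5 related lists (x axis). Filled points passed the adjusted threshold of 0.05, and black lines are medians. The 26S genes and the proteasome partners have medians of 0.30 and 0.28, the MHC class I and interferon lists of -0.37 and -0.29.

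Shared sequence limited some of these values. At least 20% of the 50-base words in the exons of 8 members also occur in other genes: Psma3, Psma4, Psma5, Psmb5, Psmc3ip, Psmd2, Psme2 and Psme2b. In 25 members there were none. Antisense exons covered at least 10% of the exon length of 5 members, Psmb7, Psmb8, Psmc3ip, Psmd9 and Psmd13, and their counts may include reads of the overlapping genes Nek6, Gm20496, Mlx, Gm26745 and Sirt3 in that order.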

How the data were processed

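RNA-Seq counts of 6 libraries of hepatocytes, 3 at 0hr and 3 at 48hr after PHx, were analysed. The counts per gene were deposited by the authors as raw, whole-number htseq-count output. Their processing notes name FastQC 0.11.5, Trim Galore 0.6.4, STAR 2.6, HTSeq 0.12.4, DESeq2 and mm10, and the counting strand and overlap mode are not given in the sources used here. Reads outside genes (24.3 to 32.7% of all entries) and ambiguous reads (4.27 to 5.29%) stayed out of library sizes.

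Gene counts of 31419443 to 36346220 per library were tested in R 4.3.3 with edgeR 4.0.16 (quasi-likelihood F-test, TMM factors, at least 10 counts in at least 3 libraries, Benjamini-Hochberg adjustment over all 17037 genes, threshold 0.05). Log2 fold changes are 48hr over 0hr, and the standard error is the log2 fold change divided by the square root of F. CPM are TMM-normalized, and CPM per kilobase use the merged exon length. Ratios within libraries were compared by exact permutation. The code was tested on simulated data. Of the genes changed there by 0.5 on the log2 scale, 6 of 66 were recovered, beside 42 of 70 at 1 and 55 of 60 at 2. Far fewer genes were changed there than were called in these data, so these shares need not hold here. Small changes can be missed, and not passing the test does not show that a gene was unchanged. Alternatives were RLE, upper-quartile, library-size and protein-coding TMM scaling, DESeq2 1.42.0, limma-voom 3.58.1, a test against a 1.2-fold change, other low-count filters, a replicate block and leaving out each library. Leaving out 0hr replicate 2 for the lists was added after seeing the data.

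The members and lists were chosen with earlier results of these data known. Named by rule were the catalytic subunits, activators, inhibitor, tissue-specific and non-subunit members, the highest and lowest estimate of each role group and the 2 highest and 2 lowest called genes of each list. Other genes were named after their values were seen. Of 17 partner genes 16 were matched. Some genes of the lists are counted but not reported here by name. The replicates are 3 hepatocyte preparations a time point, each from its own mouse per the study's methods.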

Additional observations from a re-analysis of the deposited data

How the results depend on the processing

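The number of members called higher (15) was 8 with upper-quartile scaling, 33 with library size alone, 5 when tested against a 1.2-fold change and 7 to 14 when each library was left out (9 without 0hr replicate 2, 7 without 48hr replicate 1 and 7 without 48hr replicate 2). The number called lower (0) was 1 with upper-quartile scaling, 1 with TMM factors from protein-coding genes and 0 to 1 with a library left out, the gene being Psmd3. Library size alone gave a 26S median of 0.50, and leaving out a library gave 0.16 to 0.36. With library size alone, 31.2% of all genes were higher and 12.4% lower, and with upper-quartile scaling 18.4% and 23.0%. Signs turned with library size alone for Psma5 (0.13), Psmb8 (0.092), Psmd11 (0.097) and Psme2b (0.11). They turned with upper-quartile scaling for Psmd4 (-0.0017), Psmd6 (-0.037), Psmd12 (-0.043), Psme4 (-0.024), Psmg1 (-0.042) and Psmg4 (-0.0097), and with protein-coding TMM factors for Psmd6 (-0.0060), Psmd12 (-0.011) and Psmg1 (-0.011). With a library left out they turned for Psmb8 (-0.22 to 0.077), Psmd4 (-0.038 to 0.14), Psmd12 (-0.030 to 0.12), Psme1 (-0.0034 to 0.18), Psme2b (-0.20 to 0.077), Psmg1 (-0.091 to 0.18) and Psmg4 (-0.0059 to 0.13). Partner genes called higher were 9 with library size alone and 3 with protein-coding TMM factors or without 0hr replicate 2. The NRF1 list had 4 higher with library size alone, and 1 with protein-coding TMM factors, with DESeq2 or without 0hr replicate 2. With library size alone, the MHC class I list had 1 higher and 3 lower, and the interferon list 3 higher (1 higher without 0hr replicate 2). The cause of these shifts was not tested beyond what each setting leaves out. Over the 49 tested members and 16 alternatives (784 values), 675 kept their direction and side of the threshold, 64 lost the call, 24 gained one and 21 turned. The permutation test of the ratios within pairs could not pass the threshold under any setting, and a change of length cannot move their differences.

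Replicate numbers did not pair the samples, which came from different mice (correlations of same-numbered deviations 0.0335, -0.0674 and -0.138). A fit with the replicate number as a block called 10 members higher and 0 lower, with a 26S median of 0.30. With 3 libraries a group, the permutation test of a single value cannot go below 0.1, and genes under about 3 counts, such as Psmb11, could not be compared.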
